A study of Mus musculus with 6 samples.

Results

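The liver X receptors and genes that they control, of cholesterol efflux and of related lipid handling, were followed through osteoclast formation with and without LE. LE is a methanol extract of the leaves of *Abeliophyllum distichum*. The 9 genes were Nr1h2, Nr1h3, Abca1, Abcg1, Apoe, Pltp, Mylip, Lpcat3 and Smpdl3a. They were selected on these data, because Abca1 and Abcg1 were lower in RANKL-treated cells that also received LE. All 9 were found by symbol among 24940 genes of the deposited table, and all 9 were among the 11595 genes that passed the filter on low values. The values of R+LE against +R chose the genes, so they are given as a description without a test for each of the 9, as are those of Abca1 and Abcg1 in R+LE against -R. Intervals printed with these values take no account of that choice and are not to be read as a test.

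RNA was sequenced from bone marrow macrophages, the precursors of osteoclasts, after 3 days in culture with M-CSF at 30 ng/mL, the growth factor that all groups shared. Cells of the group -R received M-CSF alone. The group +R also received RANKL at 100 ng/mL, the cytokine that starts osteoclast formation, and the group R+LE received RANKL with LE at 10 µg/mL. Each group had 2 libraries, and there was no group with LE but without RANKL. The labels name C57BL/6 mice aged 6 to 8 weeks, while the methods of the study name ICR mice. The sources used here do not say whether the 2 libraries of a group came from separate cultures or animals, so p-values measure only the spread between these libraries, which may be technical.

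LXRβ, the product of Nr1h2, and LXRα, the product of Nr1h3, are nuclear receptors that bind oxidised forms of cholesterol. Paired with a retinoid X receptor they sit on DNA at target genes and switch them on when the cell holds much sterol. Their targets carry cholesterol out of macrophages and slow its uptake, and osteoclasts are known to need membrane cholesterol for cell fusion and survival.

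The libraries held between 29391100 and 34847560 mapped reads, of which 74.2 to 80.7% lay on genes. Levels are RPKM, reads per kilobase of transcript per 1000000 mapped reads. Read counts behind the 9 genes were lowest for Mylip, at 246 to 988 reads per library, and highest for Apoe, at 1336 to 15011. Differences are log2 fold changes of RPKM + 0.5, which understate the change of genes with low levels, given with the standard error (SE) of limma and a p adjusted by the Benjamini-Hochberg method over all genes tested. Genes with an adjusted p below 0.05 are said to be called. In bulk RNA, fewer cells of a type and less RNA per cell cannot be told apart.

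**Figure D1:**
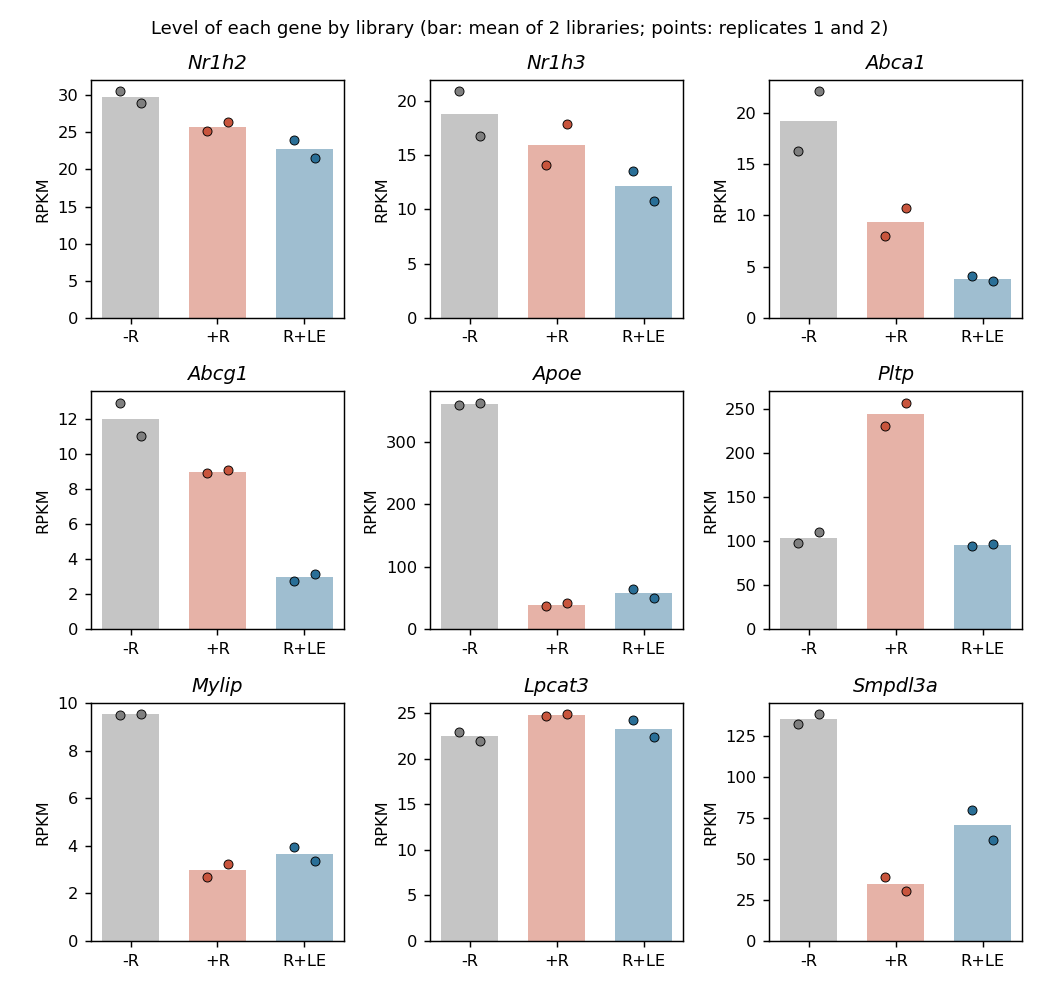
RPKM of each of the 9 genes (y axis, linear from 0) in -R, +R and R+LE (x axis), with a bar for the mean of 2 libraries and a point for each library. Abca1 and Abcg1 step down from -R to +R to R+LE, Pltp is high in +R alone, and Apoe, Mylip and Smpdl3a are highest in -R.

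Both receptors were expressed in all 6 libraries. Nr1h2 on chromosome 7 (mm10, chr7:44549616-44553965, minus strand) was at 30.6 and 28.9 RPKM in -R, 25.2 and 26.4 RPKM in +R, and 24.0 and 21.5 RPKM in R+LE. Nr1h3 (chr2:91184061-91195116, minus strand) was at 20.9 and 16.8 RPKM in -R, 14.1 and 17.8 RPKM in +R, and 13.5 and 10.8 RPKM in R+LE. The libraries of Nr1h2 did not overlap between groups, whereas those of Nr1h3 overlapped between -R and +R. In +R against -R, Nr1h2 had a log2 fold change of -0.20 ± 0.14 (SE; limma adjusted p = 0.243), and Nr1h3 one of -0.23 ± 0.17 (limma adjusted p = 0.271). Neither passed the test.

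In R+LE against -R, both receptors were called lower by small amounts. Nr1h3 fell to 64.4% of its level in -R, with a log2 fold change of -0.62 ± 0.17 (limma adjusted p = 0.00956). That call was lost with no filter on low values (limma adjusted p = 0.0810), without -R replicate 1 (limma adjusted p = 0.154) and without R+LE replicate 2 (limma adjusted p = 0.0591), over a range of 0.000370 to 0.154 in 17 alternatives. Nr1h2 fell to 76.5%, with a log2 fold change of -0.38 ± 0.14 (limma adjusted p = 0.0429), but the call was lost in 9 of 17 alternatives, with adjusted p between 0.0236 and 0.213, among them with any 1 library other than R+LE replicate 1 left out. As a description, R+LE differed from +R by -0.18 (95% interval -0.47 to 0.11) for Nr1h2 and by -0.38 (95% interval -0.74 to -0.03) for Nr1h3, both as log2. The LXRβ transcript was the more abundant one in every library, with 1.46 to 1.998 times the RPKM of the LXRα transcript.

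Abca1 encodes the membrane transporter that loads cholesterol and phospholipid onto lipid-poor apolipoprotein A-I, and Abcg1 the transporter that passes cholesterol on to more mature particles. Abca1 lies at chr4:53030789-53159895 (mm10, minus strand). The stretch upstream of its start is shown because it was the only promoter among those of the 9 genes to hold an LXR element, together with those of Srebf1, the regulator of fatty acid synthesis, and Fasn, the fatty acid synthase, which hold the same letters in both half-sites. The element was searched as 2 half-sites NGGTNA in direct repeat with 4 bases between them, on both strands, and the E-box as CACGTG. Capitals mark the half-sites as they read on the printed strand and, in Abca1, also the E-box. The sequences are from RefSeq (GRCm38.p6), 5′ to 3′ on the minus strand, at chr4:53159935-53160054, chr11:60210626-60210665 and chr11:120824745-120824784.
Abca1: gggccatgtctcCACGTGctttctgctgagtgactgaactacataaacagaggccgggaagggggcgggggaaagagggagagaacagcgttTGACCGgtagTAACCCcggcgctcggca
Srebf1: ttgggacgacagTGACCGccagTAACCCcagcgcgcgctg
Fasn: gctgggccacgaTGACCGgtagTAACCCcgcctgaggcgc

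The element of Abca1 began 67 bases before the start of transcription, that of Srebf1 182 bases before an internal start, and that of Fasn 225 bases before its start. Promoters of 300 bases, from 250 before to 50 after the start, were at hand for 7 of the 9 genes, the others being Abcg1 and Smpdl3a. Of 84 other genes of the pathway, described further below, 62 had such a promoter, and only 2, Srebf1 and Fasn, held the element. The LXR targets Arl4c, Mertk and Cd5l had no match, and Scd1 and Scd2 had no promoter to search. Of all 32851 such promoters, 236 held the element, or 0.718%, and 2349 held the E-box, or 7.15%. A match of letters is a description and does not show that a receptor bound there.

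Abca1 was at 16.3 and 22.1 RPKM in -R, 8.02 and 10.7 RPKM in +R, and 4.04 and 3.54 RPKM in R+LE. The means were 19.2 ± 4.10, 9.36 ± 1.90 and 3.79 ± 0.352 RPKM (SD, n = 2). The groups did not overlap, which for R+LE is a description, because the fall there chose this gene. RANKL alone lowered Abca1 2.05-fold, with a log2 fold change of -0.997 ± 0.17 (limma adjusted p = 0.000228). This call held under the 17 alternatives that kept the threshold on adjusted p alone. From +R to R+LE the mean was 2.47-fold lower, a log2 difference of -1.19 (95% interval -1.56 to -0.82), and from -R to R+LE it was 5.07-fold lower, a log2 difference of -2.19 (95% interval -2.56 to -1.82), both as a description.

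Abcg1 (chr17:31057694-31117981, mm10, plus strand) was at 12.9 and 11.03 RPKM in -R, 8.88 and 9.08 RPKM in +R, and 2.74 and 3.16 RPKM in R+LE. Both R+LE libraries were below all others, which is a description, because the fall in R+LE chose this gene. The libraries of -R and +R did not overlap either. RANKL alone lowered it 1.33-fold, with a log2 fold change of -0.39 ± 0.14 (limma adjusted p = 0.0360). That call was lost in 6 of 17 alternatives, with adjusted p between 0.0176 and 0.235, among them without -R replicate 1 (limma adjusted p = 0.235), without +R replicate 1 (limma adjusted p = 0.143) and without +R replicate 2 (limma adjusted p = 0.105). From +R to R+LE the mean was 3.04-fold lower, a log2 difference of -1.46 (95% interval -1.76 to -1.16), as a description, and from -R to R+LE it was 4.05-fold lower. The level of Abca1 over that of Abcg1 within a library ran from 0.902 to 2.01 over the 6 libraries, and its range in R+LE, 1.12 to 1.47, lay within that of -R and +R together.

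Apoe encodes apolipoprotein E, which macrophages secrete and which takes up exported cholesterol, and Pltp encodes the phospholipid transfer protein that remodels lipoprotein particles. Apoe (chr7:19696244-19698621, mm10, minus strand) was the most abundant of the 9 transcripts in -R, at 359 and 363 RPKM. It was at 36.7 and 42.5 RPKM in +R and at 65.03 and 49.7 RPKM in R+LE. RANKL alone lowered it 9.12-fold, with a log2 fold change of -3.18 ± 0.16 (limma adjusted p = 5.64e-10). It remained 6.29-fold lower in R+LE than in -R (log2 fold change -2.66 ± 0.16, limma adjusted p = 8.96e-09). Both R+LE libraries were above both +R libraries, by a log2 difference of 0.52 (95% interval 0.17 to 0.87), as a description.

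Pltp was the only gene of the 9 that RANKL raised. Pltp (chr2:164839518-164857708, mm10, minus strand) was at 98.0 and 110 RPKM in -R, 231 and 257 RPKM in +R, and 94.1 and 96.4 RPKM in R+LE. The increase from -R to +R was 2.35-fold, with a log2 fold change of 1.23 ± 0.15 (limma adjusted p = 1.02e-05). R+LE was 2.56-fold below +R, a log2 difference of -1.35 (95% interval -1.68 to -1.02), as a description, and R+LE against -R gave -0.12 ± 0.15 (limma adjusted p = 0.573), with a 95% interval of -0.45 to 0.20. Pltp shares 495 of its 1809 exonic bases with Ctsa, the gene of a lysosomal protease on the other strand, and reads were counted without regard to strand. Ctsa was at 113 to 153 RPKM in the 6 libraries, with log2 differences of -0.04 in +R against -R and -0.14 in R+LE against +R. The level of Apoe over that of Pltp went from 3.67 and 3.30 in -R to 0.159 and 0.165 in +R, and stood at 0.691 and 0.516 in R+LE.

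Mylip encodes IDOL, a ubiquitin ligase that limits the uptake of cholesterol from lipoproteins. Mylip (chr13:45389742-45411940, mm10, plus strand) was at 9.52 and 9.53 RPKM in -R, 2.69 and 3.24 RPKM in +R, and 3.93 and 3.36 RPKM in R+LE. RANKL lowered it 3.21-fold, with a log2 fold change of -1.54 ± 0.15 (limma adjusted p = 6.45e-07). It was also lower in R+LE than in -R, by 2.61-fold (log2 fold change -1.28 ± 0.15, limma adjusted p = 7.35e-06). The difference of R+LE from +R was 0.26 (95% interval -0.06 to 0.57), as a description.

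Smpdl3a encodes a secreted phosphodiesterase related to acid sphingomyelinase, and Lpcat3 the enzyme that builds polyunsaturated fatty acids into membrane phospholipids. Smpdl3a (chr10:57794544-57811830, mm10, plus strand) was at 132 and 138 RPKM in -R, 39.1 and 30.3 RPKM in +R, and 79.8 and 61.6 RPKM in R+LE, with no overlap between groups. RANKL lowered it 3.90-fold, with a log2 fold change of -1.96 ± 0.17 (limma adjusted p = 1.88e-07). It was still lower in R+LE than in -R (log2 fold change -0.94 ± 0.17, limma adjusted p = 0.000470). From +R to R+LE its mean was 2.04-fold higher, a log2 difference of 1.02 (95% interval 0.65 to 1.38), as a description.

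Lpcat3 (chr6:124663104-124704716, mm10, plus strand) was between 22.0 and 24.9 RPKM in all 6 libraries. Its log2 fold change was 0.14 ± 0.13 in +R against -R (limma adjusted p = 0.422, 95% interval -0.15 to 0.43) and 0.05 ± 0.13 in R+LE against -R (limma adjusted p = 0.817, 95% interval -0.24 to 0.34). The difference of R+LE from +R was -0.09 (95% interval -0.38 to 0.20), as a description. It shares 38 exonic bases with Emg1 on the other strand, and exons of the remaining 7 genes shared no base with another gene in the annotation used here.

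**Figure D2:**
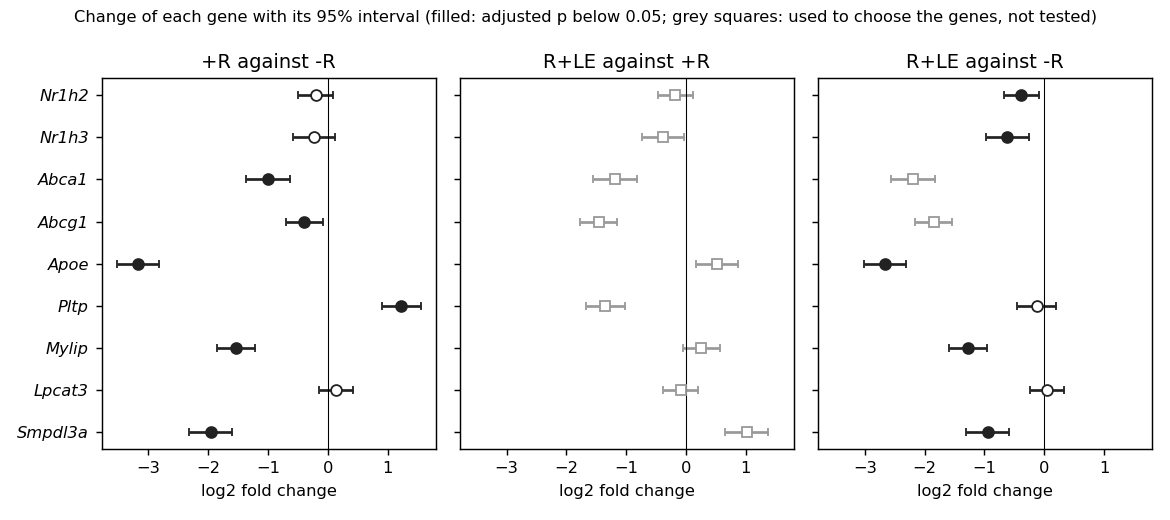
Log2 fold change (x axis) with its 95% interval for each of the 9 genes (y axis) in the 3 comparisons, 1 to a panel. Filled circles passed an adjusted p of 0.05, open circles did not, and grey squares are values that chose the genes and were not tested. Apoe has the lowest value in +R against -R, at -3.18, and Pltp the highest, at 1.23.

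In +R against -R, 5 of the 9 genes were called lower and 1 was called higher, where 21.5% of all genes tested were called lower and 23.9% higher. With the additional threshold of a 2-fold change that the study used, 4 of 9 were called, against 15.5% of all genes. This threshold was applied to log2(RPKM + 0.5), on which Abca1, at -0.997, fell just short. The median log2 fold change was -0.39 over the 9 genes and 0.05 over all genes tested. Of the 7 genes that could be tested in R+LE against -R, 5 were lower, where 19.0% of all genes were called lower and 15.3% higher, and 2 of 7 also passed 2-fold, against 10.3%. The split of all genes depended on the scaling, with 1773 higher and 2201 lower as reported, 2380 and 2101 under median centring, 2531 and 2129 under quantile normalization, and 2245 and 1922 with the ribosomal transcript Rn45s left out of the depth. Without -R replicate 1 and, separately, without R+LE replicate 2, 3 of 7 were called. From +R to R+LE, 3 of 9 lay past the same threshold with lower values and 1 with a higher value, beside 6.86% and 5.19% of all genes. All 4 also passed 2-fold, beside 3.23%. Nothing is read from these last counts, because this contrast chose the genes.

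The order of the 9 levels changed between conditions. In -R it ran from Apoe through Smpdl3a, Pltp, Nr1h2, Lpcat3, Abca1, Nr1h3 and Abcg1 to Mylip, and the libraries overlapped only between neighbours Lpcat3 and Abca1 and between Abca1 and Nr1h3. In +R, Pltp came first, and Abca1 and Abcg1 stood seventh and eighth with overlapping libraries, as did Apoe and Smpdl3a. In R+LE, Abcg1 was last, below Mylip without overlap, while Abca1 and Mylip overlapped, as did Smpdl3a with Apoe and Lpcat3 with Nr1h2.

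The genes most like Abca1 over the 6 libraries, by Pearson's r of log2(RPKM + 0.5) among the 10666 genes whose mean reached 1 RPKM, were Cblb (r = 0.994), which encodes a ubiquitin ligase, Pck2 (r = 0.994), the mitochondrial form of a gluconeogenic enzyme, Cadm1 (r = 0.991), an adhesion molecule, Usp42 (r = 0.990), a ubiquitin protease, and Gm10677 (r = 0.989). Cblb went down from a mean of 8.57 RPKM (-R) over 5.03 RPKM (+R) to 3.10 RPKM (R+LE). Pearson's r takes no account of the size of a change. Usp42 had means of only 2.73, 2.40 and 2.12 RPKM in the same order, and Ilkap, named next, 14.8, 14.2 and 12.8 RPKM. Those most like Abcg1 were Ilkap (r = 0.991), Dhrs11 (r = 0.991), Aldh6a1 (r = 0.987), Mir7036 (r = 0.986) and Vps52 (r = 0.985). Abcg1 itself ranked 169th by likeness to Abca1 (r = 0.928), behind Nr1h2 at rank 136 (r = 0.934). The 6 points of each r share 3 conditions and the depth of each library, and so the values are a description.

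Marker genes of cell types moved with several of these results. The summed RPKM of 9 osteoclast markers was 43.4 to 44.999 in -R, 1894 to 2161 in +R and 340 to 393 in R+LE. Each of the 9 was called higher in +R than in -R and lower in R+LE than in +R. All 9 were also called higher in R+LE than in -R. Pltp likewise had its highest level in +R, which beside R+LE is a description. Unlike the markers, Pltp was not called in R+LE against -R (limma adjusted p = 0.573). The sum of 7 macrophage markers was 6650 to 7243 RPKM in -R, 2857 to 3609 RPKM in +R and 3823 to 4254 RPKM in R+LE, but most of it was Lyz2, at means of 5317, 2132 and 3060 RPKM. Without Lyz2, the other 6 summed to 1587 to 1672 RPKM in -R, 1042 to 1161 RPKM in +R and 894 to 1063 RPKM in R+LE, so that +R and R+LE overlapped. Csf1r, the M-CSF receptor, had means of 338, 206 and 185 RPKM, and Cd68, a lysosomal glycoprotein, of 771, 445 and 336 RPKM. These means stepped down in the order of Abca1 and Abcg1, although libraries of Csf1r overlapped between +R and R+LE. Adgre1 (184, 102 and 148 RPKM) and Fcgr1 (68.8, 1.64 and 1.85 RPKM) instead had their lowest means in +R, as did Lyz2. Itgam and Spi1 had higher means in +R than in -R that did not pass the test (limma adjusted p = 0.0847 and 0.0636). In limma, 5 of the 7 were called lower in +R than in -R and 0 of 7 were called in R+LE against +R, with 3 of 7 at an unadjusted p below 0.05 and 2 of 7 called by voom on recovered reads. The sum of 8 stromal and adipocyte markers was 16.4 to 17.6, 11.1 to 15.3 and 8.61 to 10.2 RPKM, with 4 of the 8 under 1 RPKM in every library. The means of Col1a1 and Col1a2, which made up most of that sum, stepped down in the order of Abca1 and Abcg1. Libraries of Col1a2 overlapped between -R and +R, and those of Col1a1 between +R and R+LE. Runx2 had means of 1.45, 0.764 and 1.25 RPKM and was the only stromal marker called in +R against -R. For R+LE against +R, the stromal calls were Col1a2 and Col3a1, both downward (limma adjusted p = 0.0312 and 0.0133). Neutrophil markers summed to 15.3 to 17.045 RPKM in -R, 0.660 to 0.816 RPKM in +R and 0.564 to 2.53 RPKM in R+LE. Markers of T and B cells, dendritic cells and erythroid cells summed to at most 1.61, 1.15 and 0.583 RPKM, with 1 of 7 T and B cell markers and 3 of 4 erythroid markers at 0 throughout. The part of these cells in the values of the 9 genes was not tested.

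Of 84 other genes of the pathway, grouped in 8 lists, 63 passed the filter. In +R against -R, 19 of the 63 were called higher and 26 lower, beside 23.9% and 21.5% of all genes tested, and the median log2 fold change was -0.18, beside 0.05. For R+LE against +R, 15 were called higher and 9 lower, beside 5.19% and 6.86%, with a median of 0.04, beside -0.05 over all genes tested. R+LE had 14 called higher and 28 lower when set against -R, beside 15.3% and 19.0%, with a median of -0.25, beside -0.01. The same shares are the background of each list. The lists were drawn up from known roles, with earlier results of these data in view.

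**Figure D3:**
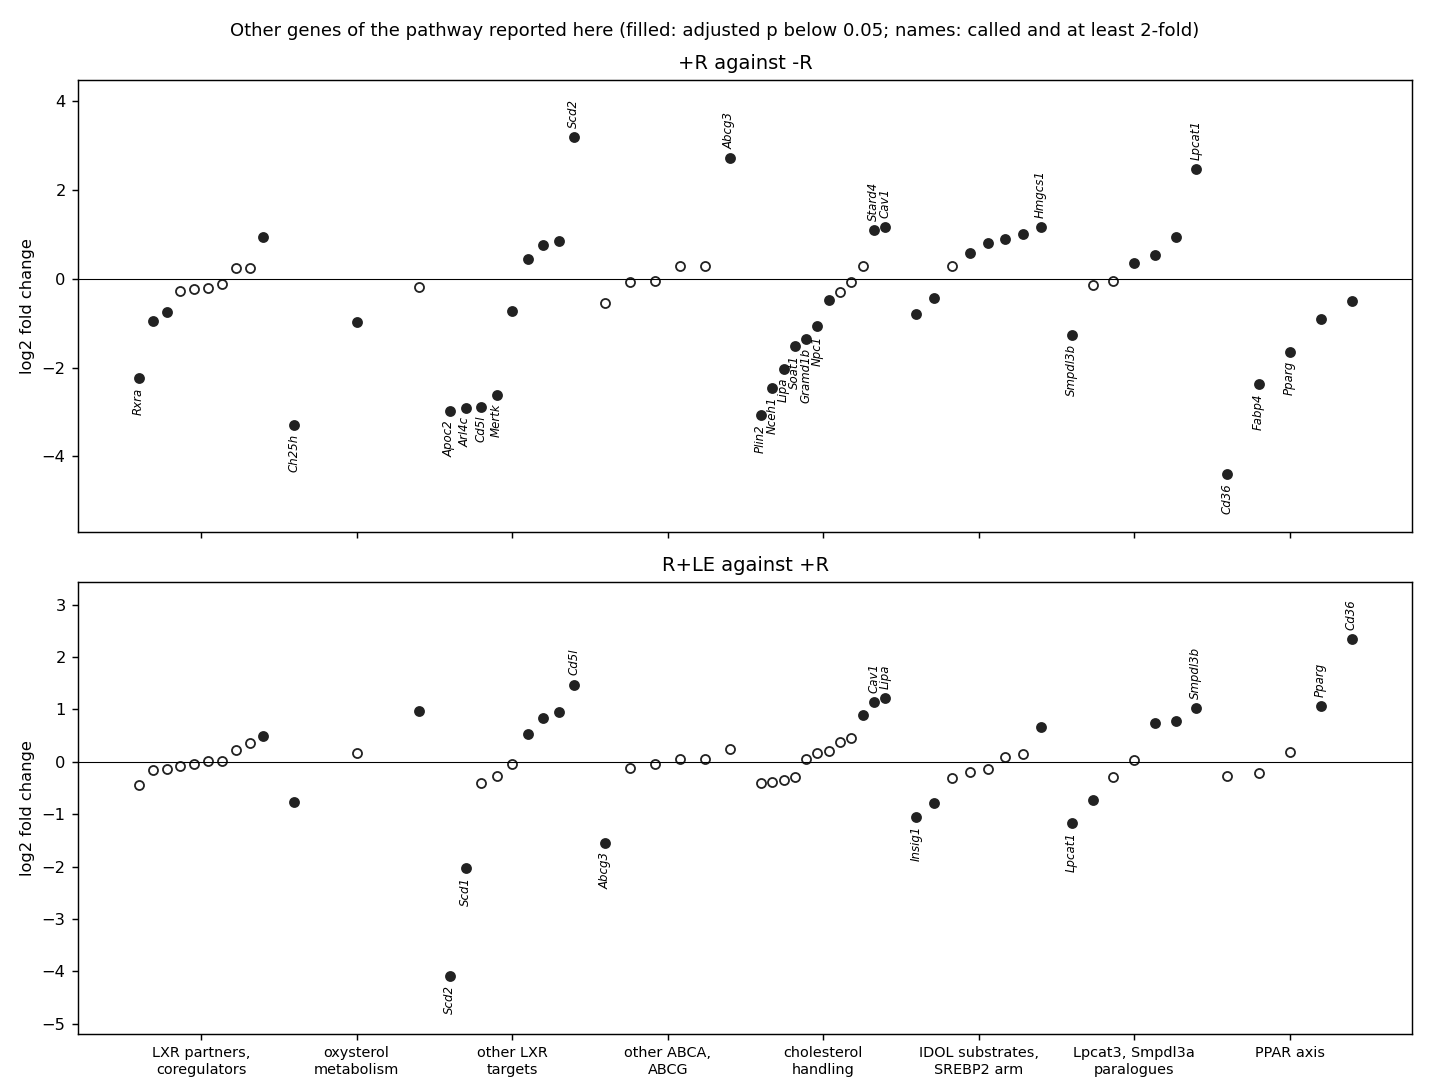
Log2 fold change (y axis) of tested genes of the 8 pathway lists (x axis) in +R against -R (upper panel) and R+LE against +R (lower panel). Filled points passed an adjusted p of 0.05, and names mark those that also changed at least 2-fold. Scd2, at 3.19 above and -4.10 below, turns between the panels, as does Cd36, at -4.40 and 2.34.

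Of 11 partners and coregulators of the receptors, 4 fell and 1 rose with RANKL. The 5 were 45.5% of the list, close to the share of all genes called in the 2 directions together. Rxra, which encodes the retinoid X receptor α that pairs with both LXRs, was at 17.9 and 15.7 RPKM in -R and 3.17 and 3.14 RPKM in +R, a log2 fold change of -2.24 ± 0.14 (limma adjusted p = 4.04e-09). The coactivator Ncoa3 fell by 0.96 on the log2 scale, while Rxrb, the β form of the retinoid X receptor, rose by 0.93. In R+LE, Rxra was at 4.62 and 4.59 RPKM, above both +R libraries (log2 fold change 0.48 ± 0.14, limma adjusted p = 0.0319). It was the only one of the 11 called in R+LE against +R, and the call was lost in 9 of 17 alternatives, each library left out in turn among them, with adjusted p up to 0.138.

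Among 4 enzymes of sterol metabolism, which make or remove ligands of LXR, Ch25h had the largest change. Ch25h makes 25-hydroxycholesterol and was at 12.1 and 15.1 RPKM in -R, 0.773 and 1.11 RPKM in +R, and 2.35 and 2.26 RPKM in R+LE. It fell 14.5-fold with RANKL (log2 fold change -3.30 ± 0.17, limma adjusted p = 5.06e-10) and was 2.45-fold higher in R+LE than in +R (log2 fold change 0.97 ± 0.17, limma adjusted p = 0.00117). Cyp27a1, which makes 27-hydroxycholesterol, fell by 0.97 on the log2 scale with RANKL. Hsd3b7, an enzyme of bile acid synthesis from oxysterols, was lower in R+LE than in +R (log2 fold change -0.78 ± 0.16, limma adjusted p = 0.00443). With no filter on low values, the calls of Ch25h and Hsd3b7 in R+LE against +R were lost (limma adjusted p = 0.0629 and 0.0874).

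All 9 tested genes of the list of other LXR targets were called in +R against -R, 4 higher and 5 lower, and 4 higher and 2 lower in R+LE against +R. Scd2, a desaturase that makes monounsaturated fatty acids, was at 5.62 and 5.82 RPKM in -R, 53.5 and 58.8 RPKM in +R, and 2.54 and 3.09 RPKM in R+LE. It rose 9.82-fold with RANKL (log2 fold change 3.19 ± 0.14, limma adjusted p = 1.14e-10) and was 19.9-fold lower in R+LE than in +R (log2 fold change -4.10 ± 0.14, limma adjusted p = 1.64e-10). Its relative Scd1 was at 2.51 and 2.74 RPKM in +R and 0.243 and 0.292 RPKM in R+LE, a log2 fold change of -2.02 ± 0.19 (limma adjusted p = 6.14e-06). Cd5l, which encodes a secreted macrophage protein, was at 15.4 and 18.3 RPKM in -R, 1.98 and 1.73 RPKM in +R, and 6.20 and 5.88 RPKM in R+LE. It fell with RANKL (log2 fold change -2.88 ± 0.14, limma adjusted p = 4.35e-10) and was higher in R+LE than in +R (1.47 ± 0.14, limma adjusted p = 7.31e-06). Arl4c, a small GTPase, did likewise, falling by 2.92 on the log2 scale with RANKL and standing 0.96 higher in R+LE than in +R. Apoc2, the apolipoprotein that activates lipoprotein lipase, was at 3.83 and 3.89 RPKM in -R and at 0.115 and 0 RPKM in +R, or 2 reads and 0 reads. Srebf1 and Fasn, whose promoters hold the element printed above, had log2 fold changes of -0.41 and -0.27 in R+LE against +R that did not pass the test (limma adjusted p = 0.0907 and 0.366).

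**Figure D4:**
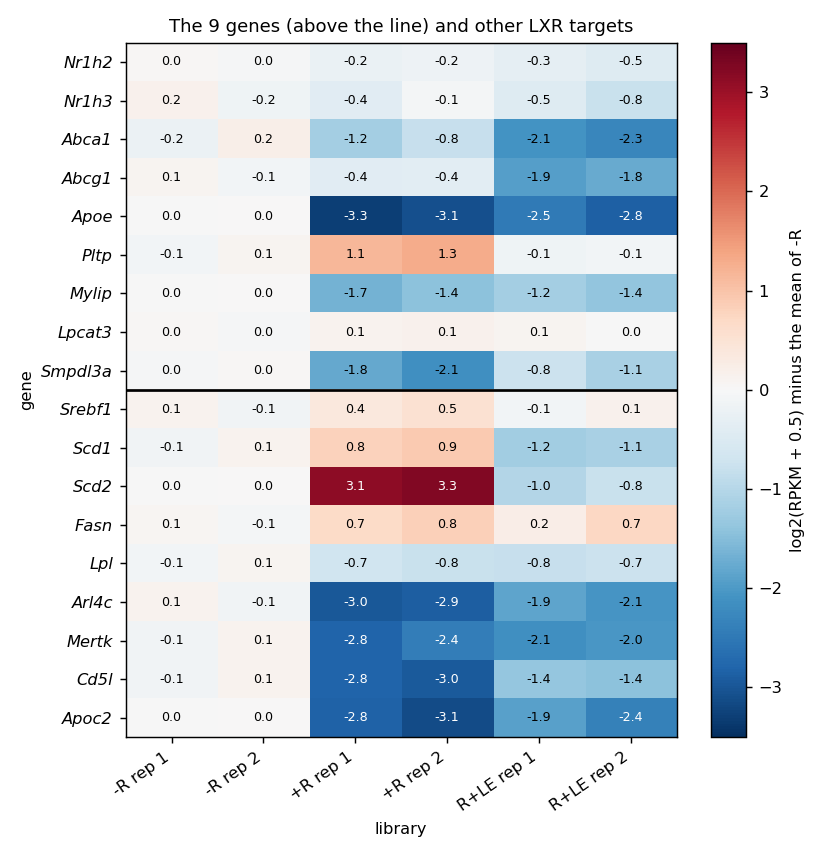
Log2(RPKM + 0.5) minus the mean of -R (colour and number) for the 9 genes, above the line, and the 9 tested genes of the list of other LXR targets (rows) in the 6 libraries (columns). Both R+LE libraries are lowest for Abca1, Abcg1, Nr1h2, Nr1h3, Pltp, Scd1 and Scd2. Both +R libraries are lowest for Apoe, Mylip, Smpdl3a, Arl4c, Mertk, Cd5l and Apoc2.

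Of 16 other ABCA and ABCG transporters, 6 passed the filter. Among the 6, Abcg3 was the gene called in +R against -R and the gene called in R+LE against +R. Abcg3, whose role is not settled, was at 0.214 and 0.228 RPKM in -R, 3.94 and 4.61 RPKM in +R, and 1.19 and 1.06 RPKM in R+LE, so that it rose with RANKL (log2 fold change 2.72 ± 0.19, limma adjusted p = 1.32e-08) and was lower in R+LE than in +R (-1.56 ± 0.19, limma adjusted p = 4.35e-05).

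Of 12 genes that move cholesterol between lysosome, droplet and membrane, 7 fell and 2 rose with RANKL. Plin2, the coat protein of lipid droplets, was at 836 and 805 RPKM in -R and 102 and 92.1 RPKM in +R (log2 fold change -3.07 ± 0.17, limma adjusted p = 1.70e-09). Nceh1, a cholesteryl ester hydrolase, fell by 2.45 on the log2 scale, Lipa, the acid lipase of the lysosome, by 2.03, and Soat1, which esterifies cholesterol, by 1.51. With LE added to RANKL, 3 of 12 rose. Lipa was at 123 and 101 RPKM in +R and at 300 and 230 RPKM in R+LE (log2 fold change 1.23 ± 0.18, limma adjusted p = 0.000363), Cav1, the protein of caveolae, rose by 1.15 and Plin2 by 0.90 on the log2 scale. The calls of Cav1 and Plin2 were lost with no filter on low values, with adjusted p of 0.0818 and 0.0618 by limma.

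Among 9 genes of IDOL substrates and of the SREBP2 arm, which builds cholesterol, 6 rose and 2 fell with RANKL. Hmgcs1 was at 6.85 and 10.002 RPKM in -R, 19.9 and 18.4 RPKM in +R, and 11.8 and 10.003 RPKM in R+LE, with a log2 fold change of 1.16 ± 0.17 in +R against -R (limma adjusted p = 4.37e-05). Hmgcs1 is an enzyme of cholesterol synthesis. Insig1, the sterol-dependent anchor of SREBP2, rose by 0.99 and Idi1, a later enzyme of the synthesis pathway, by 0.89 on the log2 scale. From +R to R+LE, 3 of the 9 fell and 1 rose. Insig1 had a log2 fold change of -1.05 ± 0.16 (limma adjusted p = 0.000380), Hmgcs1 one of -0.79 and Lrp8, a lipoprotein receptor that IDOL targets, one of 0.67. The calls of Hmgcs1 and Lrp8 in R+LE against +R were lost with no filter on low values (limma adjusted p = 0.109 and 0.0716).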

How the data were processed

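Per the labels, RNA of 6 libraries was sequenced, 2 each of -R, +R and R+LE. The paper's methods name TopHat, whereas the submitters' processing notes name HISAT2, HOMER, DESeq2 and mm10. The authors deposited RPKM (called FPKM in the column titles), which HOMER computed from reads on exons on either strand with 1 transcript per gene. Symbols that a spreadsheet had turned into dates (26) were restored from transcript identifiers.

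RPKM values are not counts. The 11595 genes whose mean reached 0.5 RPKM were tested as log2(RPKM + 0.5) with limma 3.58.1 in R 4.3.3, on group means of all 6 libraries, with a variance trend and Benjamini-Hochberg adjustment. An exact permutation test of 2 against 2 libraries cannot go below p = 0.333, so none was used. Whole reads were recovered from the steps between low values (100% of values checked were whole within 0.1 reads) and gave the depth. The scripts were tested on simulated data. Python 3.11.15, numpy 2.4.6, pandas 2.3.3 and matplotlib 3.10.9 were used for tables and figures.

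The 9 genes, the pathway lists and the marker lists were chosen with earlier results of these data known. Beyond the 9 genes, up to 4 genes per list with the largest change among those called were named, with the 5 genes most like Abca1 and the 5 most like Abcg1, less 3 pathway genes that are not reported here. Srebf1, Fasn and Mertk were named after their values were seen, and Ctsa and Emg1 for their overlap. Alternatives were pseudocounts of 0.1 and 1, other filters and scalings, no trend, other groups in the fit, voom on recovered reads, a replicate block, the 2-fold threshold and each library left out.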

Additional observations from a re-analysis of the deposited data

How the results depend on the processing

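Of the calls on single genes of the 9, those of Abca1, Apoe, Pltp, Mylip and Smpdl3a held under each of 17 alternatives other than the 2-fold threshold, and those of Abcg1, Nr1h2 and Nr1h3 did not, as given with their values. The log2 fold change of Lpcat3 in R+LE against -R ran from -0.0085 without R+LE replicate 1 to 0.106 with each library left out in turn, and the cause was not tested. With the 2-fold threshold, 24 instead of 45 pathway genes were called in +R against -R, 11 instead of 24 in R+LE against +R and 18 instead of 42 in R+LE against -R, and 2 instead of 5 of the 9 genes in R+LE against -R, since the threshold leaves out smaller changes. With no filter on low values, 12 pathway genes were called in R+LE against +R, and the cause was not tested. With each library left out in turn, 3 to 5 of the 9 genes were called in R+LE against -R. Such a fit leaves a group with 1 library, which is assumed to vary like the others. Of 49 calls on the pathway genes with the largest changes, 38 held under each of the 17 alternatives other than the 2-fold threshold. The ribosomal transcript Rn45s took 4.97 to 6.83% of reads on genes in -R and 10.9 to 13.5% in the other libraries. Libraries share replicate numbers, and their deviations from group means correlated at -0.046, 0.107 and 0.249 between groups. With 2 libraries a group, these values cannot show whether the numbers pair the libraries. A fit with the replicate number as a block called 6 of the 9 genes in +R against -R, 5 in R+LE against -R, and 45, 26 and 43 pathway genes in the order of comparisons above.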

Other observations

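Relatives of Lpcat3 and Smpdl3a changed, while Lpcat3 itself did not pass the test in +R against -R and had no test in R+LE against +R. Of 7 tested paralogues, 4 were called higher and 1 lower in +R against -R, beside 23.9% and 21.5% of all genes, and 3 higher and 2 lower in R+LE against +R, beside 5.19% and 6.86%. Lpcat1, another enzyme that reacylates lysophospholipids, was at 9.37 and 8.27 RPKM in -R, 57.5 and 45.5 RPKM in +R, and 24.3 and 20.9 RPKM in R+LE, a log2 fold change of 2.47 ± 0.15 with RANKL (limma adjusted p = 4.69e-09) and of -1.17 ± 0.15 in R+LE against +R (limma adjusted p = 0.000121). Lpcat2, which also makes platelet-activating factor, was higher in R+LE than in +R by 0.77 on the log2 scale and Mboat1, a related acyltransferase, by 0.73, the call of Mboat1 being lost without +R replicate 2 and with no filter on low values. Smpdl3b, the closest relative of Smpdl3a, was at 8.64 and 6.58 RPKM in -R, 2.69 and 3.01 RPKM in +R, and 6.34 and 6.38 RPKM in R+LE, and so followed the same order of conditions as Smpdl3a, with a log2 fold change of -1.27 ± 0.15 with RANKL (limma adjusted p = 7.64e-06) and of 1.04 ± 0.15 in R+LE against +R (limma adjusted p = 0.000340). Smpd1, the acid sphingomyelinase, rose by 0.93 on the log2 scale with RANKL.

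All 5 tested genes of the PPAR axis, a neighbouring lipid-sensing pathway of macrophages, fell with RANKL, and 2 of them rose when LE was added to RANKL. Cd36, the scavenger receptor that takes up oxidised LDL, was at 468 and 541 RPKM in -R, 25.5 and 21.4 RPKM in +R, and 140 and 103 RPKM in R+LE, which was a 21.5-fold fall with RANKL (log2 fold change -4.40 ± 0.18, limma adjusted p = 4.12e-11) and a 5.19-fold higher level in R+LE than in +R (2.34 ± 0.18, limma adjusted p = 6.89e-07). Pparg, the receptor PPARγ, fell by 1.65 on the log2 scale with RANKL and was higher by 1.06 in R+LE than in +R (limma adjusted p = 0.000314). Fabp4, a fatty acid carrier, fell by 2.38 and Angptl4, an inhibitor of lipoprotein lipase, by 0.91 with RANKL. Among 7 macrophage markers, the means of Lyz2, Adgre1 and Fcgr1 had the same order of conditions as Cd36 and Pparg. Csf1r and Cd68 had their lowest means in R+LE, and Itgam and Spi1 in -R. The part of macrophage number in these values was not tested.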
